A study of Mus musculus with 2 samples.

Results

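Pericytes and smooth muscle cells are the mural cells of blood vessels, and in one library of hippocampal cells 107 barcodes carried their marker RNA. A barcode stands for 1 droplet, usually 1 cell. The members were chosen by their own counts. A barcode was taken if it had at least 1000 UMIs (unique molecular identifiers, each counting 1 captured RNA molecule), at least 500 genes and at most 10% of UMIs from mitochondrially encoded genes. Its UMIs of Vtn, Rgs5, Kcnj8, Abcc9, Acta2, Tagln and Myl9 together had to reach 0.5% of the total. They also had to exceed the sum of 8 endothelial genes, and the sum of 6 microglial genes had to be below 0.3%. The 107 were 4.94% of the 2164 barcodes of library 2 that passed the first 3 limits (95% exact binomial interval 4.07 to 5.94%), of 6448 barcodes in that library and of 18754 in both libraries.

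The series measured RNA of single cells with droplet-based 10x Genomics 3' sequencing. Both libraries held hippocampal cells pooled from 3 male wild-type C57BL/6 mice, 10 weeks of age, with no transgene or other treatment named in the labels and with myelin and debris removed on Percoll. The study set an enzyme digestion of 30 min at 37 °C beside a mechanical dissociation kept at 4 °C, but no label ties a library to a method, so the libraries were left without a group. Library 2 is the sample titled with the number 2, and its files carry another number. It held 29356086 UMIs with a median of 1600.5 per barcode, and library 1 held 18783691 UMIs in 12306 barcodes with a median of 1256. The 107 members held 610045 UMIs, with a median of 4739 and a range of 1892 to 33675 per barcode. Their mitochondrial share was 6.84% at the median (2.59 to 9.99%). Of the library 2 barcodes, 19 had the same sequence as a barcode of library 1, and 0 of these were members.

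Each library is 1 pool of mice, so no replicate test was possible and no p-value is given. UMIs were summed over the barcodes of a class and given per 1000000 UMIs of that class (CPM). Intervals are exact, at the 95% level, and cover the error of counting alone, so the spread between mice or preparations is not in them. A 3' UMI count is not divided by gene length, so levels are compared between classes and not between genes. A class at 0 UMIs was set to a floor of 3 counts over the class, and a ratio against it is given as a bound. The classes were cut from the same counts, so ratios between them describe these barcodes. A share of library RNA cannot tell fewer cells of a type from less RNA per cell.

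Pericytes sit in the basement membrane of capillaries, and smooth muscle cells wrap arteries, arterioles and larger veins. Both depend on platelet-derived growth factor B released by endothelium, which acts through the receptor Pdgfrb, and on Notch signals received through Notch3. Brain pericytes are known for an ATP-sensitive potassium channel made of the pore subunit Kcnj8 and the sulfonylurea receptor Abcc9, which links membrane potential to cell metabolism. Smooth muscle contracts through the actin Acta2, the myosin heavy chain Myh11, the myosin light chain Myl9 and the actin-binding protein Tagln. Transcription of these contractile genes is driven in large part by serum response factor, which binds the CArG box.

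The promoters of the 2 channel genes and of 2 contractile genes are shown because most members carried both channel genes. They also lacked most of Acta2 while keeping Myl9. Each runs from 250 bases before to 50 after the annotated start, 5′ to 3′ on the strand of the gene, from RefSeq on GRCm38.p6. Capitals mark a CArG box of the exact form CCWWWWWWGG (W is A or T) or TGGGAA, the core bound by the Notch effector RBPJ.
Kcnj8 promoter: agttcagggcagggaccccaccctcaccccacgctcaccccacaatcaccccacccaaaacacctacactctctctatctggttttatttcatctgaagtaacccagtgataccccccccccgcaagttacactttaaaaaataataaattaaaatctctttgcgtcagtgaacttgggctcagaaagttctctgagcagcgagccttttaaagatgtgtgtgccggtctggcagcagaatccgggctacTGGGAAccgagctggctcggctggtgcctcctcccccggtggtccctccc
Abcc9 promoter: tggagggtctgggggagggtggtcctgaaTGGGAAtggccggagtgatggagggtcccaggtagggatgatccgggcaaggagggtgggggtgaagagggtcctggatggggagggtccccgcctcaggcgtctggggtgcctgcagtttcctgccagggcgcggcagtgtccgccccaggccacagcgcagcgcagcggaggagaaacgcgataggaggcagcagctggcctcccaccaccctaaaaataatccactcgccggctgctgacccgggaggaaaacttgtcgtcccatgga
Acta2 promoter: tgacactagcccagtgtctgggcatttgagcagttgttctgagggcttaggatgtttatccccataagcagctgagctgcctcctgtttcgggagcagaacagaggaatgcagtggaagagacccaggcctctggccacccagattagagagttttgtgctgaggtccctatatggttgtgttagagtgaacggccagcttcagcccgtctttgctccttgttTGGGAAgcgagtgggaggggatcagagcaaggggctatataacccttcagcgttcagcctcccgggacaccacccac
Myl9 promoter: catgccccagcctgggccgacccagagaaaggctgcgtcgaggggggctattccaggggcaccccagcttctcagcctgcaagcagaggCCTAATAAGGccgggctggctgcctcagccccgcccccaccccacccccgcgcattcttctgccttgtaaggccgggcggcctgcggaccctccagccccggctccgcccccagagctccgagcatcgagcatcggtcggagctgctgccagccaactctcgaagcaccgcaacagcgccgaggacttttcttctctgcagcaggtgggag
These stand at chr6:142571565-142571864 (minus strand) for Kcnj8, chr6:142702225-142702524 (minus strand) for Abcc9, chr19:34255324-34255623 (minus strand) for Acta2 and chr2:156775214-156775513 (plus strand) for Myl9. Kcnj8 and Abcc9 are neighbours on chromosome 6, 16247 bases apart, with 0 protein-coding genes starting between them. Of 13 genes looked up, 9 had a promoter entry kept here, and 8 of these matched a transcript of the gene. On either strand, TGGGAA stood once in the window of Kcnj8, of Abcc9 and of Acta2. Of the other windows kept, Vtn held it at 3 sites and Rgs5, Myl9, Cnn1, Notch3 and Atp13a5 at 0. Among 32851 promoters of the same length, 25.6% held it at least once. A CArG box of the exact form stood in the Myl9 window alone of the 9, against 1.63% of the 32851 promoters. The Acta2 window held 0 of that form. It holds ccctatatgg and ccttgttTGG, which each differ from the form by a single base, and the latter overlaps the marked TGGGAA. Such variants were not searched, so the windows cannot be said to differ in CArG boxes. The marked motifs do not overlap, and a match is a description of the letters.

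The 7 genes of the rule were carried unequally by the members. Vtn, which encodes vitronectin, an extracellular protein of plasma and matrix, had at least 1 UMI in 105 of 107 barcodes. Rgs5, a regulator of G protein signalling, was found in 92, Myl9 in 92, Kcnj8 in 84 and Abcc9 in 83. Tagln was found in 10 and Acta2 in 6, which is 5.61% of the members (2.09 to 11.8%). Vtn was the highest of the 7 genes in 86 barcodes, Rgs5 in 18, Tagln in 2 and Acta2 in 1. Exactly 5 of the 7 genes had a UMI in 69 barcodes. Summed levels of Vtn were 12979 CPM in the members and 319 CPM in endothelial-like barcodes, with barcode values of 0, 14184 and 45707 CPM (lowest, median, highest) in the members. These values chose the members, so they are a description.

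The members nearest to the limits show how sharply the rule cut. The lowest marker share among the members was 0.541%, and the highest below the limit, among barcodes that met the other conditions, was 0.447%. The lowest ratio of the mural to the endothelial sum was 1.10 inside and the highest outside was 0.968. The endothelial condition kept out 11 barcodes and the microglial condition 4. The highest microglial share among members was 0.223%, and the lowest among those kept out was 1.03%.

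Kcnj8 and Abcc9 were both found in most members. Both had a UMI in 77 of 107 members, Kcnj8 alone in 7, Abcc9 alone in 6 and neither in 17. Of these 17, 13 were among the 15 fibroblast-marked barcodes described further on. In the 86 other pericyte side barcodes both had a UMI in 76, Kcnj8 alone in 4, Abcc9 alone in 5 and neither in 1. Whether the genes pair beyond how often each was found was not tested. In endothelial-like barcodes both had a UMI in 16 of 194, Kcnj8 alone in 1, Abcc9 alone in 14 and neither in 163. The genes lie at 142564837 (Kcnj8) and 142587862 (Abcc9), the lower ends of their spans on chromosome 6 of GRCm38. Abcc9 overlaps 5330439B14Rik on the opposite strand, and Tagln overlaps Pcsk7 and Gm48529. No source used here states whether counting used the strand, and whether these overlaps affect the counts was not tested.

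The label of the set names both cell types, and the data held few barcodes of the smooth muscle kind. Members were split by whether Acta2, Tagln and Myl9 together had more UMIs than Vtn, Kcnj8 and Abcc9 together. The smooth muscle side held 4 barcodes, which is 3.74% of the members (1.03 to 9.30%). The share was 8.14% of 172 barcodes with a mitochondrial limit of 20%, and 1.90% without the 2 of them that lacked Acta2, a setting added after seeing the data. The pericyte side held 101 (94.4%), and 2 were tied. By ratio, 3 members lay within a factor of 2 of the split, the 2 ties among them. This leaves out a smooth muscle side barcode that was placed by 1 UMI against 0. Because the name smooth muscle rests on so few barcodes, the set is called mural-marked below, and its sides by their markers.

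Each of the 4 barcodes on the smooth muscle side differed from the others. The first had 23249 UMIs, with 79 of Acta2, 179 of Tagln, 65 of Myl9 and 28 of Myh11. It also had 158 UMIs of Rgs5 and 50 of Vtn, and its endothelial markers made up 0.542% of its RNA. The second had 2867 UMIs, with 27 of Acta2, 10 of Tagln, 9 of Myl9, 5 of Myh11 and 12 of Vtn. The third had 18921 UMIs and 119 of Tagln but 0 of Acta2 and 0 of Myh11. It carried 68 UMIs of Dcn and 57 of Lum, which encode proteoglycans of fibroblast matrix, and 14 of the collagen gene Col1a1. The fourth had 8788 UMIs and was placed by 1 UMI of Myl9 against 0 of the pericyte genes. It had 94 UMIs of Rgs5, and endothelial markers made up 0.979% of it. Acta2 and Myh11 were thus both present in 2 of the 4.

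**Figure D1:**
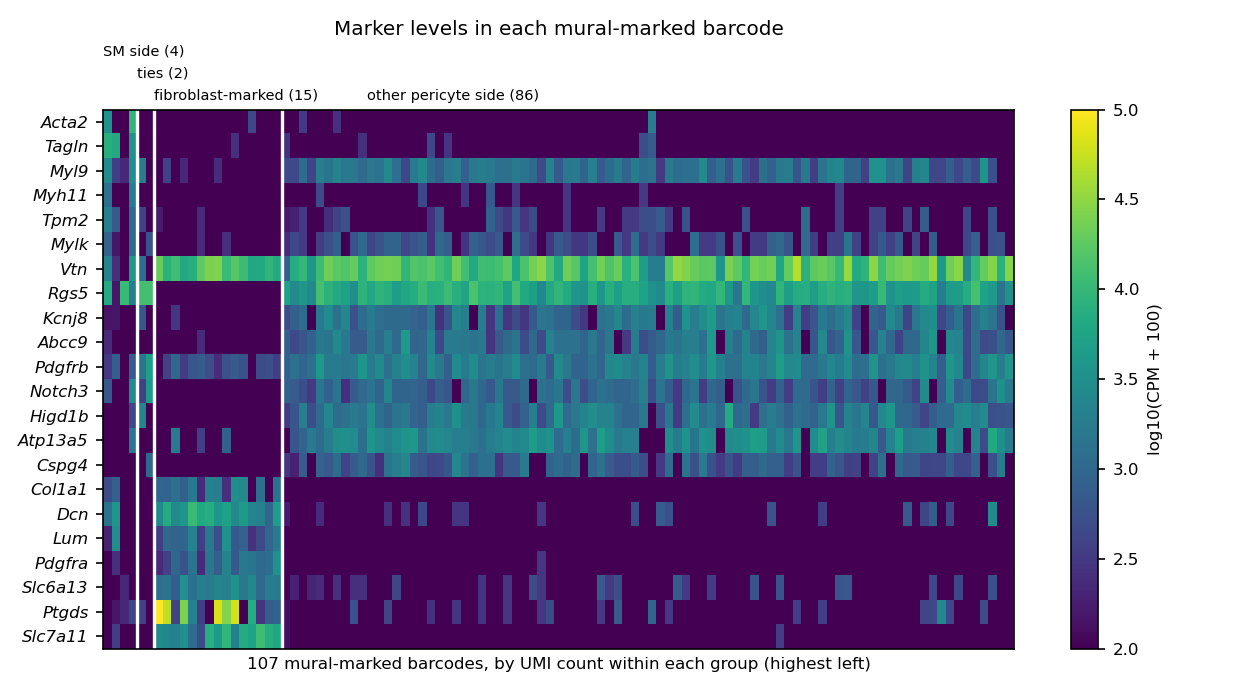
Level of 22 marker genes (rows) in each of the 107 mural-marked barcodes (columns), as log10 of CPM plus 100. Groups run from left to right as smooth muscle side (4), ties (2), fibroblast-marked (15) and other pericyte side (86), by UMIs within each. Rgs5 has no UMI in the 15 fibroblast-marked barcodes, and Acta2 has UMIs in 6 of 107.

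Genes that neither the rule nor the split used were compared between the 4 smooth muscle side and the 101 pericyte side barcodes. Among 2314 genes with at least 50 UMIs in both together, 244 (10.5%) were at least 2-fold higher on the smooth muscle side and 484 (20.9%) were at most 0.5-fold. The median log2 ratio over all 2314 was -0.13. Contractile genes were higher on the smooth muscle side, at 13748 CPM summed over the list against 6933 CPM, a log2 ratio of 0.99 (0.87 to 1.10). Of 35 genes of this list 14 had enough UMIs, 7 were at least 2-fold higher and 0 at most 0.5-fold, with a median log2 ratio of 1.10. The summed log2 ratio was 2.99 with a mitochondrial limit of 20%, and 1.55 without the 2 smooth muscle side barcodes that lacked Acta2. Myh11 had 33 UMIs in the 4 barcodes, all in 2 of them, with a ratio of 26.0 (13.3 to 53.8). Tpm2, a tropomyosin of the thin filament, was at 1059 CPM on the smooth muscle side and 105 CPM on the pericyte side, a ratio of 10.1 (6.85 to 14.7). Tpm1 had a ratio of 4.70 (3.51 to 6.23) and the light chain Myl6 one of 2.82 (2.29 to 3.45). Cald1, which encodes the actin-binding caldesmon, was at 1932 CPM on the smooth muscle side and 2780.2 CPM on the pericyte side. Its ratio was 0.695 (0.564 to 0.848), so this regulator of contraction was not lower on the pericyte side.

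Pericyte genes ran the other way across the split. Of 26 genes of that list with enough UMIs, 24 were at most 0.5-fold on the smooth muscle side and 0 at least 2-fold. Their median log2 ratio was -2.54. Summed levels were 3121 CPM on the smooth muscle side and 17418 CPM on the pericyte side, a log2 ratio of -2.48 (-2.71 to -2.26). Ptn, the growth factor pleiotrophin of the list shared by mural cell types, was at 186 CPM against 11980 CPM, a ratio of 0.0155 (0.00743 to 0.0285). Rgs5, a gene of the rule, was at 4793 CPM on the smooth muscle side and 4928 CPM on the pericyte side, and 94 of its 258 UMIs on the smooth muscle side came from the barcode placed by 1 UMI of Myl9. Immediate early genes, which are transcribed within minutes of a stimulus, were at 7692 CPM on the smooth muscle side and 2395 CPM on the pericyte side. The Tagln-rich barcode with Dcn and Lum held 1.43% of immediate early RNA, with 72 UMIs of Jun and 27 of Fos. The other 3 held 0.140 to 0.512%.

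Most smooth muscle side barcodes of library 2 lay above the mitochondrial limit. Above 10% mitochondrial UMIs, 79 further barcodes met every other condition, and 14 of them (17.7%, 10.0 to 27.9%) were on the smooth muscle side. By mitochondrial share, the smooth muscle side held 1 of 17 barcodes up to 5%, 3 of 90 from 5 to 10%, 5 of 38 from 10 to 15%, 5 of 27 from 15 to 20% and 4 of 14 above 20%. Of the 14 above the limit, 9 had more than 5% of their UMIs in the contractile list, a boundary set after the values were seen. These 9 had 6.14 to 6.92% contractile RNA, against 2.55% in the highest of the 107 members. They held 9669 to 45920 UMIs each, at 10.1 to 17.8% mitochondrial. Acta2 had 210 to 1005 UMIs in each, Tagln 153 to 701 and Myh11 44 to 255. Together they had 0 UMIs of Vtn and 2 of Rgs5. The other 5 had 0.635 to 3.60% contractile RNA and 154 UMIs of Rgs5 together, in 2205 to 7343 UMIs each, at 14.2 to 34.8% mitochondrial.

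**Figure D2:**
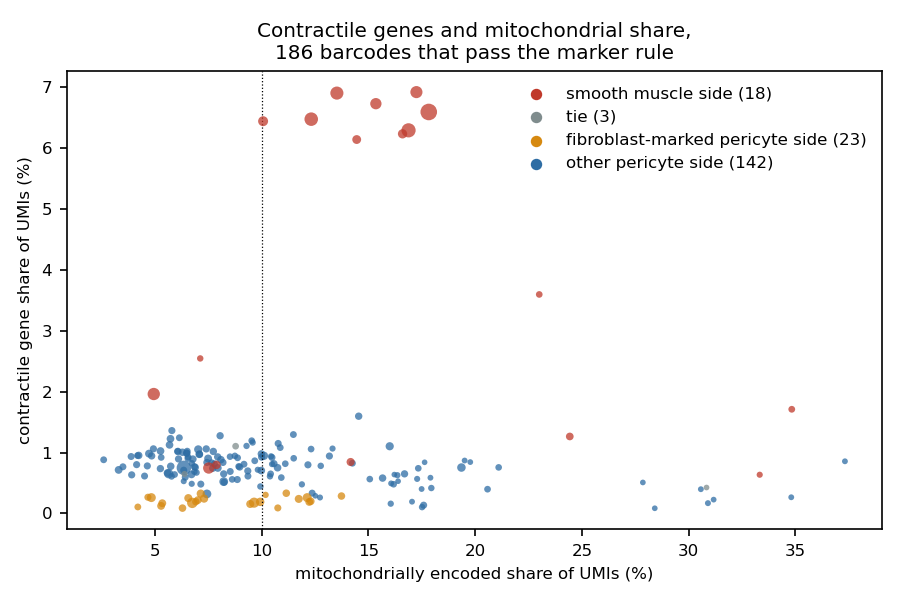
Share of UMIs from the contractile gene list against the mitochondrial share of UMIs, both in percent, for the members and for the 79 barcodes above the limit, with the point size growing with UMIs. The dotted line is the limit of 10%, and the 9 barcodes with 6.14 to 6.92% contractile RNA lie to its right.

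Above the limit the 14 smooth muscle side barcodes were set beside 56 pericyte side barcodes below the fibroblast boundary of 0.5% given further on, whose fibroblast share reached 0.478%. Of 1184 genes with enough UMIs, 311 (26.3%) were at least 2-fold higher and 230 (19.4%) at most 0.5-fold, with a median log2 ratio of 0.22. Contractile genes summed to 60717 CPM on the smooth muscle side and 7298 CPM on the pericyte side, a log2 ratio of 3.06, and 24 of 28 were at least 2-fold higher. Acta2, a gene of the split, was at 409, 16231 and 25470.3 CPM (lowest, median, highest) in the 14 barcodes and had 0 UMIs in the 56. Myh11 was at 4967 CPM against 45.4 CPM, a ratio of 110 (55.4 to 254). Cnn1, the calponin of differentiated smooth muscle, was at 925 CPM against 0 UMIs, at least 54.4-fold higher. Pln, which encodes phospholamban, an inhibitor of calcium uptake into the sarcoplasmic reticulum, was at 1799 CPM against 1 UMI. Sorbs2 was at 2531 CPM against 1 UMI, and the intermediate filament gene Vim at 5299 CPM against 51.0 CPM.

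Of 14 genes shared by mural cell types, 3 were at most 0.5-fold and 1 at least 2-fold higher above the limit, with a median log2 ratio of -0.56. Across the split of the members, 8 of the 14 were at most 0.5-fold and 0 at least 2-fold higher, with a median of -1.54. Notch3 was at 383 CPM in the smooth muscle side barcodes and 726 CPM in the pericyte side barcodes, a ratio of 0.528 (0.398 to 0.697). The matrix protein gene Igfbp7 was at 4683 CPM against 3544 CPM, a ratio of 1.32 (1.20 to 1.46). Pericyte genes summed to 1928 CPM against 18525 CPM, a log2 ratio of -3.26, and 20 of 23 were at most 0.5-fold. Kcnj8, a gene of the split, had 0 UMIs on the smooth muscle side against 1055 CPM, a ratio of at most 0.0122. Pdgfrb was at 151 CPM against 1729 CPM, a ratio of 0.0871 (0.0596 to 0.124). Rgs5 was at 671 CPM against 6022 CPM. High mitochondrial shares can accompany damaged cells, and the part of RNA quality in these values was not tested.

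A further difference ran through the pericyte side, where 15 barcodes also carried fibroblast RNA. They had at least 0.5% of their UMIs from 7 fibroblast genes (Col1a1, Col1a2, Col3a1, Dcn, Lum, Pdgfra and Slc6a13), a boundary chosen after the data were seen. They were 15 of 107 members (8.06 to 22.1%), with a median of 7136 UMIs against 4632 in the other 86. The fibroblast share was 0.583, 1.17 and 2.09% (lowest, median, highest) in the 15 and 0, 0.0450 and 0.398% in the 86. All of the 15 had a UMI of Lum, Pdgfra and Dcn, and a median of 7 of the 7 genes (5 to 7) was found in each, against 1 (0 to 4) in the other barcodes.

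The fibroblast-marked barcodes held Vtn but no Rgs5. Both are genes of the rule, and the 15 had few UMIs of its other genes, so they passed it through Vtn. Vtn was at 6040, 11069 and 26205 CPM (lowest, median, highest) in the 15 and at 742, 16384 and 45707 CPM in the 86, so the groups overlap. Rgs5 had 0 UMIs in all 15, among 116467 UMIs, which allows up to 25.8 CPM. In the 86 it had a UMI in every barcode, at 1344, 6133 and 13651 CPM (lowest, median, highest). The groups do not overlap for Rgs5, and the ratio was at most 0.00412. Of 2051 genes with enough UMIs in both groups together, 487 (23.7%) were at most 0.5-fold and 167 (8.14%) at least 2-fold higher in the fibroblast-marked barcodes, with a median log2 ratio of -0.28.

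**Figure D3:**
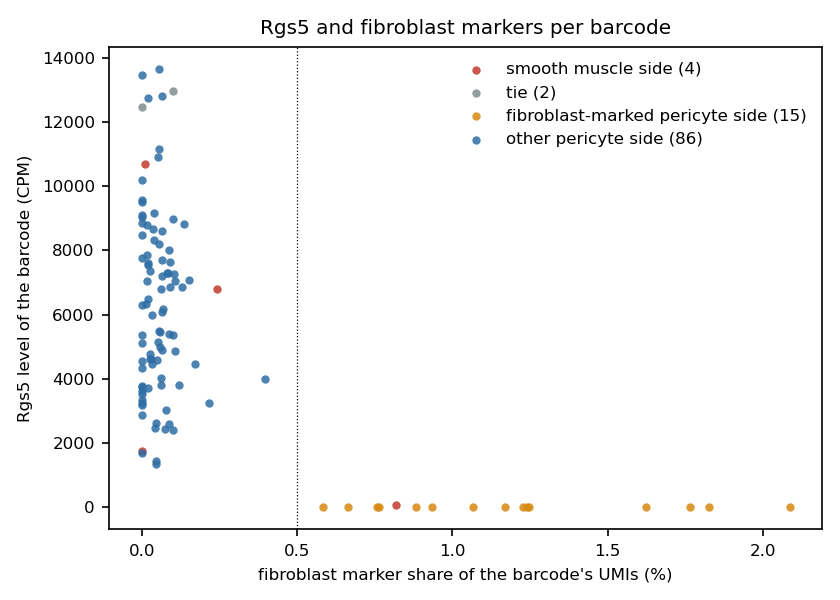
Rgs5 level in each member, in CPM, against the share of its UMIs from 7 fibroblast genes, in percent, with the dotted line at 0.5%. All 15 fibroblast-marked barcodes of the pericyte side lie at 0 CPM and the 86 others between 1344 and 13651 CPM.

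Most pericyte genes were low or missing in the fibroblast-marked barcodes. Kcnj8, a gene of the rule, had 2 UMIs in the 15, against 1169.9 CPM in the 86, a ratio of 0.0147 (0.00177 to 0.0533). Abcc9, also a gene of the rule, had 1 UMI, against 1188 CPM. The receptor gene Notch3, the pericyte gene Higd1b, the respiratory subunit gene Cox4i2 and the proteoglycan gene Cspg4 had 0 UMIs in the 15, against 815, 1343, 746 and 613 CPM in the 86. Pdgfrb was lower but present, at 0, 419 and 897 CPM (lowest, median, highest) in the 15 and 352, 1718 and 4736 CPM in the 86, a ratio of 0.206 (0.148 to 0.280). The related receptor gene Pdgfra, which helped to choose the 15 as a gene of the fibroblast boundary, had a UMI in 15 of 15 against 1 of 86. Of 26 pericyte genes with enough UMIs, 20 were at most 0.5-fold and 4 at least 2-fold higher, with a median log2 ratio of -3.11. A median of 3 of 10 pericyte markers (2 to 5) was found per barcode, against 9 (5 to 10).

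Contractile genes were also low in the 15. They summed to 1975 CPM in the fibroblast-marked barcodes and 8263 CPM in the others, a log2 ratio of -2.06, with 11 of 13 at most 0.5-fold and 0 at least 2-fold higher. Cald1 was at 369 CPM against 3427 CPM, a ratio of 0.108 (0.0776 to 0.146). The calcification inhibitor Mgp had 2 UMIs against 4162 CPM, and Igfbp7 was at 335 CPM against 4295 CPM.

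Several secreted and transport genes were high in the fibroblast-marked barcodes. Apod, an apolipoprotein that binds small lipids, was at 6631, 16487 and 29950.1 CPM (lowest, median, highest) in the 15 and at 0, 0 and 874 CPM in the 86. The groups do not overlap. Igfbp2, a binding protein of insulin-like growth factors, was at 5564 CPM against 20.7 CPM, and Slc7a11, the cystine and glutamate exchanger, at 4130 CPM against 2 UMIs. Ptgds, the prostaglandin D synthase of meninges and choroid plexus, was at 41789 CPM against 80.6 CPM, but unevenly, at 0, 1920 and 185178 CPM (lowest, median, highest) in the 15. The peptide gene Edn3 (endothelin), the collagen gene Col12a1, the laminin gene Lama1 and the organic anion transporter gene Slc22a6 had UMIs in the 15 and 0 in the 86, at least 163, 95.7, 75.8 and 70.8-fold higher. The chemokine gene Cxcl12 was at 1408 CPM against 226 CPM, a ratio of 6.24 (4.83 to 8.10).

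Other genes were carried by both groups of the pericyte side. The growth factor gene Ptn was at 16254 CPM in the fibroblast-marked barcodes and 10833 CPM in the others, a ratio of 1.50 (1.42 to 1.58). The amino acid transporter gene Slc6a20a was at 2061 CPM against 849.8 CPM, a ratio of 2.42 (2.05 to 2.86). Above the mitochondrial limit 8 more barcodes of the pericyte side were fibroblast-marked, and all 8 had 0 UMIs of Rgs5. They had Vtn because the rule and the split required it, as Kcnj8 and Abcc9 had 0 UMIs in them. Of the 56 others there, 7 also had Vtn and 0 UMIs of Rgs5. Doublet scores marked 0 of the 15, 0 of the 4 smooth muscle side barcodes and 5 of the 86. Vtn and Rgs5 are genes of the rule, and the fibroblast share chose the 15, so their levels follow in part from the choice. Of 10 pericyte markers, rule genes among them, 7 had a UMI in the 15, and Higd1b, Cox4i2 and Cspg4 had 0. The 15 are thus named by their markers and not as pericytes.

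The members were then set beside 194 endothelial-like barcodes of the same library. These met the same limits and had at least 0.5% endothelial marker RNA above the mural sum. The members here include the 15 fibroblast-marked barcodes, which held 19.1% of the UMIs of the members. Of 8108 genes with enough UMIs, 1122 (13.8%) were at least 2-fold higher in the members and 1296 (16%) at most 0.5-fold, with a median log2 ratio of 0.09. Pericyte genes outside the rule were all higher, 26 of 26 with enough UMIs, with a median log2 ratio of 4.69. They summed to 16128 CPM in the members and 959.7 CPM in endothelial-like barcodes. Of 14 genes shared by mural cell types, 12 were at least 2-fold higher and 0 at most 0.5-fold, with a median log2 ratio of 3.54. Higd1b was at 0, 1021 and 6843 CPM (lowest, median, highest) in the members and at 0, 0 and 913 CPM in endothelial-like barcodes. Atp13a5, a transport ATPase known as a brain pericyte marker, was at 1479 CPM against 23.6 CPM, a ratio of 62.8 (49.4 to 80.8). The nucleotide sugar receptor gene P2ry14 was at 719.6 CPM against 10.6 CPM, and the parathyroid hormone receptor gene Pth1r at 359 CPM against 5.49 CPM. The transporter gene Slc6a20a was at 1005 CPM against 12.6 CPM and the glutathione-cleaving enzyme gene Ggt1 at 234 CPM against 3.23 CPM.

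Growth factor and Notch signalling genes differed in both directions. Pdgfrb was at 0, 1554 and 4983 CPM (lowest, median, highest) in the members and at 0, 0 and 1576 CPM in endothelial-like barcodes, a ratio of 20.4 (17.6 to 23.9) of the sums. Its ligand gene Pdgfb was at 47.5 CPM in the members and 272 CPM in endothelial-like barcodes, a ratio of 0.175 (0.116 to 0.253). Notch3 was at 631 CPM against 51.6 CPM, and its target gene Heyl at 203 CPM against 8.07 CPM. The angiopoietin receptor gene Tek was at 27.9 CPM against 292 CPM, and the related receptor gene Tie1 at 60.7 CPM against 288 CPM. Id1, a target of bone morphogenetic protein signals, was at 141 CPM against 2074 CPM. Nodal, a ligand of the TGF-beta family, had 63 UMIs in 40 members against 1 UMI. Of the 34 genes of this list with enough UMIs, 11 were at least 2-fold higher and 13 at most 0.5-fold, with a median log2 ratio of -0.12. With only the 86 pericyte side barcodes below the fibroblast boundary and without Pdgfra, 31 genes had enough UMIs. Of these, 8 were at least 2-fold higher and 14 at most 0.5-fold, with a median of -0.82.

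Receptors and enzymes of vessel tone were carried by the members in many cases. Of 22 genes of this list, 13 were at least 2-fold higher and 5 at most 0.5-fold, with a median log2 ratio of 2.25. The subunits of the nitric oxide receptor guanylate cyclase, listed in the files as Gucy1a3 and Gucy1b3, were at 357 and 590.1 CPM in the members and 17.7 and 33.9 CPM in endothelial-like barcodes. The endothelin receptor gene Ednra was at 189 CPM against 11.6 CPM, a ratio of 16.2 (11.1 to 24.3). Sphingosine phosphate receptors divided between the classes. S1pr3 was at 316 CPM in the members and 11.9 CPM in endothelial-like barcodes, and S1pr1 was at 36.1 CPM against 467 CPM. Rgs4, like Rgs5 a regulator of G protein signals, was at 1057 CPM against 38.7 CPM.

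Channels and pumps outside the rule showed the same direction. Of 14 genes with enough UMIs, 10 were at least 2-fold higher and 2 at most 0.5-fold, with a median log2 ratio of 1.85. Atp1b2, a beta subunit gene of the sodium pump, was at 0, 592 and 2149 CPM (lowest, median, highest) in the members and at 0, 0 and 829 CPM in endothelial-like barcodes, a ratio of 17.2 (13.9 to 21.3) of the sums. The calcium-activated chloride channel gene Ano1 was at 184 CPM against 7.10 CPM, and the cation channel gene Trpc4 at 109.8 CPM against 2.58 CPM. The potassium channel subunit gene Kcne4 was at 123 CPM against 4.19 CPM.

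Contractile genes outside the rule were less uniform. They summed to 7557 CPM in the members and 3849 CPM in endothelial-like barcodes, a log2 ratio of 0.97. Of 24 with enough UMIs, 10 were at least 2-fold higher and 1 at most 0.5-fold, with a median log2 ratio of 0.43. Cald1 made up much of this sum, at 2687 CPM against 247 CPM, a ratio of 10.9 (9.98 to 11.9). Ppp1r14a, an inhibitor of myosin phosphatase, was at 207 CPM against 8.39 CPM.

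Basement membrane genes were higher in the members as a list, by a log2 ratio of 1.14 (1.10 to 1.17) of the sums. Of 27 genes, 14 were at least 2-fold higher and 2 at most 0.5-fold, with a median log2 ratio of 1.03. The summed levels were 13943 CPM in the members and 6344 CPM in endothelial-like barcodes. The laminin chain gene Lama2 was at 272 CPM against 7.74 CPM, a ratio of 35.1 (22.8 to 56.4), and Lamb1 at 133 CPM against 11.0 CPM. The proteoglycan gene Bgn was at 813 CPM against 52.6 CPM and the nidogen gene Nid1 at 554 CPM against 71.6 CPM. The collagen IV chains differed less, with ratios of 1.82 (1.61 to 2.05) for Col4a1 and 1.66 (1.41 to 1.95) for Col4a2. The fibronectin gene Fn1 had 11 UMIs against 2033, and the laminin gene Lama5 had 5 UMIs against 127. Mgp was at 3485 CPM in the members and 795 CPM in endothelial-like barcodes, with 72 of 107 members carrying it.

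**Figure D4:**
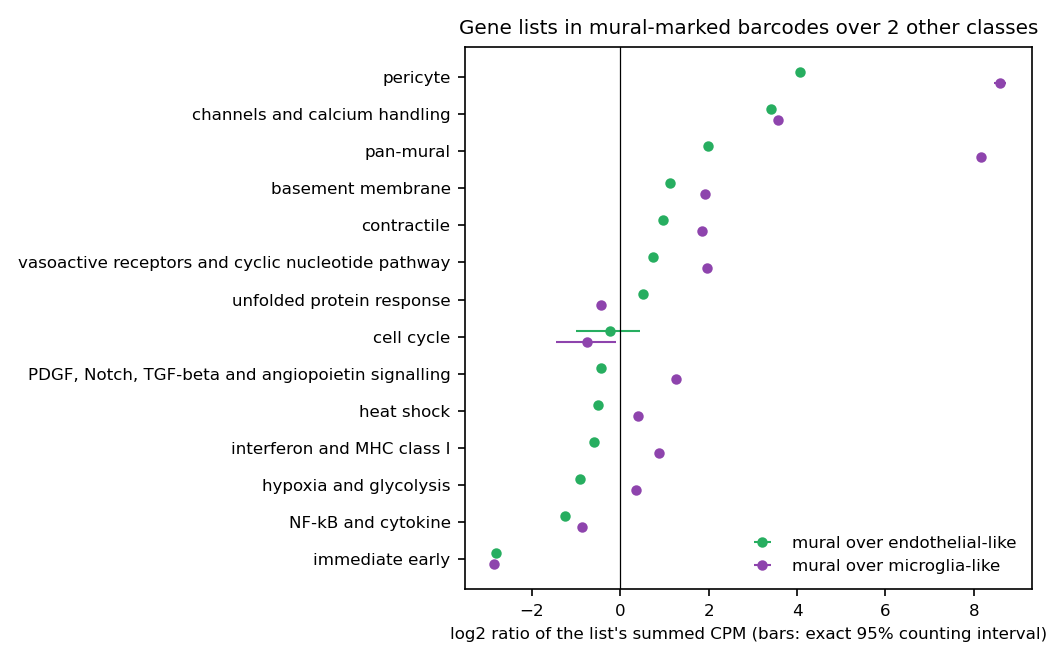
Log2 ratio of summed CPM of the mural-marked barcodes over endothelial-like (green) and over microglia-like barcodes (purple), for each of 14 gene lists, with the 95% counting interval. The pericyte list lies at 4.07 over endothelial-like barcodes and the immediate early list at -2.80.

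Immediate early RNA was lower in the members than in endothelial-like and microglia-like barcodes. Its share of UMIs was 0.0311, 0.206 and 1.43% (lowest, median, highest) in the 107 members, 0, 0.933 and 7.43% in endothelial-like and 0, 0.576 and 10.9% in microglia-like barcodes. A low share was not particular to the members. It was 0.0725, 0.122 and 0.287% in 4 fibroblast-like barcodes, which lay outside these classes and had at least 1% fibroblast marker RNA. Only 1 member lay above the endothelial-like median, and 12 of 194 endothelial-like and 279 of 1559 microglia-like barcodes lay below the median of the members. The list summed to 2859 CPM in the members and 19946 CPM in endothelial-like barcodes, a log2 ratio of -2.80 (-2.87 to -2.73). Of 24 genes with enough UMIs, 21 were at most 0.5-fold and 0 at least 2-fold higher, with a median log2 ratio of -3.30. Jun, a subunit of the AP-1 factor, had a UMI in 23 members, and its sum was 300.0 CPM in the members and 2589.5 CPM in endothelial-like barcodes. Fos, its partner, was at 75.4 CPM against 1716 CPM, a ratio of 0.0439 (0.0321 to 0.0587). Klf2, which is also a flow-responsive factor of endothelium, was at 118 CPM against 3075 CPM. Egr1 was at 85.2 CPM against 573 CPM. Klf9, a glucocorticoid-responsive factor, was close to equal, at 366 CPM against 354 CPM.

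The depth of the classes differed, at a median of 4739 UMIs in the members, 8115 in endothelial-like and 6500 in microglia-like barcodes, so barcodes were thinned to 1000 UMIs each for shares. Jun was then found in 7.48% of the members, against 64.4% of endothelial-like and 53.5% of microglia-like barcodes, and in 21.5, 86.6 and 74.3% before thinning. Fos was found in 1.87% of the members, against 34.0 and 28.7%, and in 9.35, 55.2 and 40.3% before thinning. Shares of mural genes were taken in the same way. Kcnj8 and Acta2 are genes of the rule, and the other classes needed their own marker sum above the mural sum. The choice of the classes thus sets part of these shares, while Pdgfrb was not used by the rule. Kcnj8 was found in 49.5% of the members after thinning, against 2.06% of endothelial-like and 0.128% of microglia-like barcodes. Pdgfrb was found in 74.8, 4.64 and 0.128%, and Acta2 in 2.80, 0.515 and 0.192%. Before thinning Kcnj8 was found in 78.5, 8.76 and 0.385%, Pdgfrb in 97.2, 12.9 and 0.770% and Acta2 in 5.61, 3.61 and 1.99%. The share for Acta2 in the members is 3 barcodes, with an interval of 0.582 to 7.98%.

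**Figure D5:**
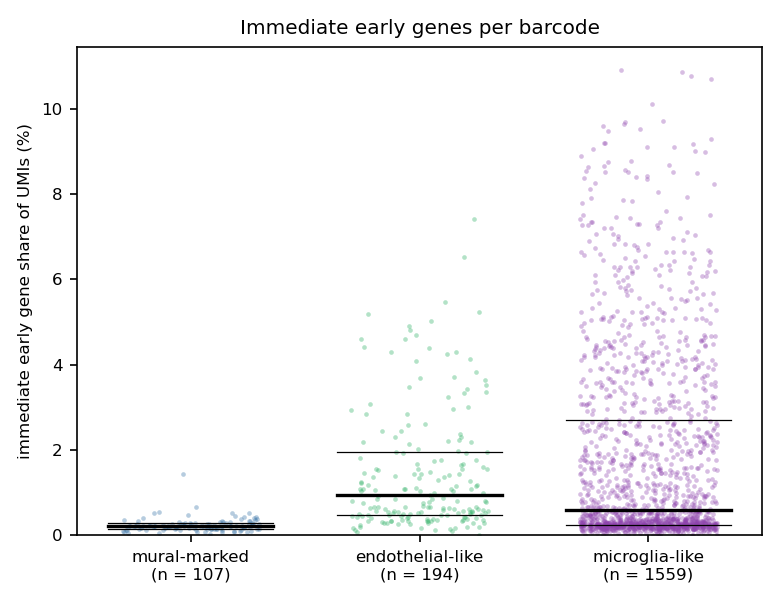
Share of UMIs from the immediate early list in each barcode, in percent, for mural-marked, endothelial-like and microglia-like barcodes of library 2, with the median as a thick line and the quartiles as thin lines. The medians are 0.206, 0.933 and 0.576%.

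Other stress and immune lists differed in direction. Genes of the NF-kB pathway and cytokines summed to 1790.0 CPM in the members and 4283 CPM in endothelial-like barcodes, with 9 of 14 at most 0.5-fold, 2 at least 2-fold higher and a median log2 ratio of -2.37. Nfkbia, an inhibitor of NF-kB, was at 192 CPM against 1389 CPM, and the adhesion gene Icam1 had 9 UMIs against 984. Il34, a ligand of the receptor Csf1r that microglia need, was at 502 CPM in all members together against 28.1 CPM, a ratio of 17.9. The NF-kB and cytokine list summed to 3237 CPM in the 15 fibroblast-marked barcodes and 1209 CPM in the 86 other pericyte side barcodes. In these 86 against endothelial-like barcodes, 10 of 13 genes were at most 0.5-fold and 1 at least 2-fold higher, with a median of -2.29. Interferon and MHC class I genes had 10 of 15 at most 0.5-fold and 1 at least 2-fold higher, with a median log2 ratio of -1.61. Heat shock genes had 2 of 13 at most 0.5-fold and 1 at least 2-fold higher, with a median of -0.32. Unfolded protein response genes had 2 of 10 at least 2-fold higher and 0 at most 0.5-fold, with a median of 0.75. With only the 86 pericyte side barcodes below the fibroblast boundary they had 1 of 10 in each direction and a median of 0.44. Hypoxia and glycolysis genes had 2 of 14 in each direction and a median of -0.25, and the glucose transporter gene Slc2a1 of this list was at 47.5 CPM against 2886 CPM. Of 8 cell cycle genes only 1 had enough UMIs.

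Against 1559 microglia-like barcodes the immediate early difference had a like size in the summed list, but not in the medians per barcode. Of 10703 genes with enough UMIs, 2046 (19.1%) were at least 2-fold higher in the members and 2127 (19.9%) at most 0.5-fold, with a median log2 ratio of 0.10. Immediate early genes summed to 2859 CPM in the members and 20710 CPM in microglia-like barcodes, a log2 ratio of -2.86. The median share was 0.206% in the members, 0.576% in microglia-like and 0.933% in endothelial-like barcodes. Microglia-like barcodes were widely spread, with quartiles of 0.242 and 2.69%, against 0.140 and 0.284% in the members. The members are the same in both comparisons, so these are not separate evidence. The log2 ratio of the summed list was 8.59 for pericyte genes.

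RNA of other cell types was present in the members, at a high share in a few. Endothelial markers made up 0 to 1.29% of their UMIs, with a median of 0.0490%, and 5 members had at least 0.5%. Ttr, a choroid plexus gene, had a UMI in all 107, and choroid markers had a median share of 0.238% in the members, 0.139% in endothelial-like and 0.184% in microglia-like barcodes. One member held more than 1% choroid marker RNA, and the highest oligodendrocyte marker share of a member was 1.77%. One member held 49.4% haemoglobin RNA, and without it the haemoglobin level of the 86 other pericyte side barcodes was 301 CPM in place of 10960.1 CPM. Ribosomal protein genes made up 3.67% of UMIs at the median in the members, 9.52% in endothelial-like and 7.90% in microglia-like barcodes. The nuclear RNA Malat1 made up 8.09, 4.36 and 3.39% in the same classes. Their part in the immediate early difference was not tested. Doublet scores marked 5 members, of which 2 had at least 0.5% endothelial markers.

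Library 1 gave few such barcodes under the same rule. It held 12 of 7209 (0.166%, 0.0860 to 0.291%), with 1014 to 2771 UMIs each. All 12 had Vtn, 224 UMIs in all and 98 of them in 1 barcode. Rgs5 had a UMI in 3, Abcc9 in 4 and Pdgfrb in 9, and Kcnj8, Acta2, Tagln and Myl9 had 0 UMIs. The median of the kept barcodes was 1746 UMIs in library 1 and 6440.5 UMIs in library 2. No comparison was drawn, since the labels put neither library in a group.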

How the data were processed

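Single-cell RNA libraries from hippocampus were analysed as the authors deposited them, as raw UMI counts per gene and barcode for 41605 genes. Cell Ranger 3.0.1 and the mouse build GRCm38.p5 were used, per the submitters' processing notes and the file headers, and no normalization had been applied to these counts. Each library pooled 3 mice. No label ties a library to a dissociation method.

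Barcodes were taken by the stated limits and marker sums. The members, gene lists and alternatives were chosen with earlier results of these data known. UMIs were summed by class and given as CPM with exact Poisson intervals. Ratios carry Clopper-Pearson intervals conditional on the summed UMIs. A gene was compared if both classes together had at least 50 UMIs, with the marker genes of the rule left out, and was counted as higher or lower at a ratio of at least 2 or at most 0.5. The ratio step was checked on simulated data. Doublets were scored with Scrublet in scanpy 1.11.5. Its automatic threshold marked 0% of library 2, so the highest 5.16% were marked instead, and no barcode was removed. Shares were compared after thinning to 1000 UMIs.

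The genes named are the rule genes, the most abundant and the most different of each of 14 lists, and the leading genes of the comparisons. Cell type markers, the leading genes of the fibroblast-marked barcodes and of those above the mitochondrial limit, Col4a1 and Col4a2 were named after their values were seen. Promoters are from RefSeq. Gene spans are from GENCODE on GRCm38. Python 3.11.15, numpy 2.4.6, pandas 2.3.3 and scipy 1.17.1 were used.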

Additional observations from a re-analysis of the deposited data

Results flagged for a closer look

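Barcodes left out by the mitochondrial limit were looked at apart from the members. Among them 14 lay on the smooth muscle side, against 4 of the 107 members. They carried Acta2 in all 14, and 10 of them had a contractile share above that of any member. No comparison of the report uses them as members.

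Library 1 was not used in the comparisons. Under the same rule its 12 barcodes held 22 UMIs of Pdgfrb, which the rule does not use, above the 3 counts that a count of 0 allows, and 9 of the 12 had it. Kcnj8 and Myl9 had 0 UMIs there.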

How the results depend on the processing

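Of 75 alternatives to 7 results, 26 moved the value further than its counting interval or, for counts of genes or barcodes, than 1.5 times. The other 49 left it within these bounds. The causes of the moves were not tested. Only the log2 ratios of lists could turn a direction, and 0 of their alternatives did. For the counts and the smooth muscle share no turn was possible. A mitochondrial limit of 20% gave 172 members. The contractile log2 ratio across the split became 2.99 with that limit, 1.19 with a marker share of at least 1%, 0.73 with at least 0.25% and 1.19 without members whose fibroblast sum was above the mural sum. The pericyte list became -2.99, -3.03, -2.81 and -2.93 in these 4 settings, in the same order, and -1.90 with barcodes weighted equally. The immediate early list over endothelial-like barcodes became -3.01 (20% limit), -3.02 (share of 1%), -2.90 (mural sum at least 4 times the endothelial), -2.95 (fibroblast sum) and -2.64 (equal weights). The basement membrane list became 0.95 (20% limit), 1.05 (share of 1%), 1.09 (share of 0.25%), 1.05 (4 times) and 0.78 (equal weights). Alternatives added after seeing the data left out some members. Without the 16 members of at least 0.5% fibroblast share, 1 of them on the smooth muscle side, the pericyte, immediate early and basement membrane lists became -3.05, -2.94 and 1.18. Without the endothelial-marked, the last 2 became -2.94 and 1.00. Without smooth muscle side members lacking Acta2, the contractile list became 1.55.

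No paired analysis was possible because the libraries belong to no group and the results come from 1 library with no test. Replicates were absent, and none was left out. Depth limits what 0 UMIs can show: up to 25.8 CPM in the fibroblast-marked and 55.7 CPM in the smooth muscle side barcodes. Values resting on 4 barcodes describe those barcodes.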
